A study of Mus musculus with 51 samples.

Results

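The arrays compared here profiled the earliest stage of a mouse model of mammary cancer against normal tissue: 4 arrays of sorted hyperplastic mammary epithelial cells and 5 arrays of whole wild-type mammary glands, 9 of the 51 arrays of the series. The arrays were selected by their titles, which name the tissue and whether it was sorted. This comparison and the gene lists were chosen with earlier results of these data known. In the model, Cre recombinase under the Wap promoter switches on a conditional Etv6-NTRK3 knock-in allele and, in the same cells, a lacZ reporter at the Rosa26 locus. The hyperplasia group was lacZ+ cells sorted from hyperplastic glands of such Wap-Cre;Etv6-NTRK3 mice, with 1 mouse per array. The gland group came from normal mice, was not sorted, and also had 1 mouse per array. Age, parity, cycle or lactation stage, strain background and the method of sorting were not given for either group. Sorting was therefore part of the comparison. Other arrays of the series held 8 sorted and 22 unsorted samples of primary tumors of the same model, and these served as a reference. The sorted and unsorted primary tumors came from different mice, so that in this reference the sort cannot be told apart from differences between animals and tumors. The remaining arrays were 7 sorted and 4 unsorted transplanted tumors, which also entered every fit of all 6 groups.

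Etv6-NTRK3 joins the oligomerization domain of ETV6, a transcriptional repressor, to the kinase domain of NTRK3, the neurotrophin-3 receptor, and the chimeric kinase signals through the RAS-MAPK and PI3K pathways. In people it is the fusion of secretory breast carcinoma. The mammary duct has an inner luminal layer, which includes the cells that become milk-secreting alveoli, and an outer basal layer of contractile myoepithelial cells. A whole gland adds adipocytes, vessels, fibroblasts and leukocytes. Wap encodes a whey protein of milk, so that the promoter that drives Cre is active in secretory luminal cells.

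Levels below are log2 intensities of the probe set with the highest mean for each gene, with 5 as the floor. Differences are hyperplasia minus gland on that log2 scale, tested with limma across 13414 genes and called at a Benjamini-Hochberg adjusted p under 0.05. By this test 2587 genes differed, 19.3% of those tested. Of these, 1268 were higher in hyperplasia (9.45%) and 1319 were lower (9.83%). The median difference over all genes tested was 0.05. The 2 groups of arrays did not overlap for 2674 genes (19.9%). At least 4-fold differences were found for 106 genes that rose and 65 that fell. In bulk RNA, fewer cells of a type and less RNA per cell cannot be told apart, and this holds for every difference below.

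The arrays themselves differed in several ways. Hyperplasia arrays correlated with each other at 0.868 to 0.937, gland arrays at 0.900 to 0.975, and arrays of different groups at 0.775 to 0.930. Hyperplasia 3 correlated better with gland 1 (0.930) than with hyperplasia 1 (0.884). The BioB and BioC spike-in signal was highest on hyperplasia 1 and 2 (12.53 and 11.35) and between 8.38 and 9.29 on the other 7 arrays. The Actb 3′ over 5′ log2 ratio, a measure of RNA integrity, was 0.07 to 0.21 in hyperplasia but 0.25 to 2.18 in glands, highest on gland 4. The 99th percentile of log2 intensity, which reflects the brightest probe sets, was 11.33 to 11.68 in hyperplasia and 10.51 to 11.47 in glands. The unadjusted p was 0.0317, 0.0476 and 0.0397 for the spike-in, the Actb ratio and the 99th percentile, and each gave an adjusted p of 0.0794 in exact two-sided permutation tests over the 5 array measures, with a smallest possible unadjusted p of 0.00794. Without hyperplasia 1 and 2 together, 856 genes were called, and without gland 4 and 5 together 1447. With the spike-in signal in the fit 1179 were called, and with the Actb ratio 965. The part of these measures in the differences was not tested beyond those fits, and that of the 99th percentile was not tested.

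Milk protein genes gave the largest rises. Of 14 members tested, 11 rose and 1 fell, with a median difference of 2.40. Without any 1 array other than hyperplasia 2 and gland 2, none fell. The list's mean level was 9.75 to 10.75 on the hyperplasia arrays and 7.27 to 8.17 on the gland arrays, with no overlap. Csn2, which encodes beta-casein, measured 13.06, 13.24, 13.43 and 13.45 on hyperplasia arrays 1 to 4. On gland arrays 1 to 5 it measured 12.36, 8.29, 10.22, 11.92 and 8.15. The glands spread widely, with gland 1 and 4 nearest to hyperplasia. The difference was 3.11 ± 0.76 (SE, n = 4 and 5, adjusted p = 0.0154). The hyperplasia levels of the caseins, 13.06 to 13.60, lie near the top of the range of these arrays, and whether they were limited by saturation was not tested. The call was lost with the spike-in signal in the fit (adjusted p = 0.0637) and without hyperplasia 1 and 2 (0.0921), although the difference was then 3.31 and 3.25. A second Csn2 probe set gave 4.44.

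Csn1s2a and Csn1s1 were also highest among the glands in gland 1 and 4. Csn1s2a, an alpha-S2-type casein, measured 13.18, 13.39, 13.47 and 13.58 in hyperplasia. The glands fell into intermediate and low levels, 10.78 and 10.55 on gland 1 and 4 against 5.29, 5.28 and 5.00 on gland 2, 3 and 5, and the difference was 6.02 ± 1.15 (adjusted p = 0.00467). Csn1s1 measured 13.14 to 13.53 in hyperplasia and 11.81, 8.28, 8.48, 11.25 and 8.30 in the glands (difference 3.71 ± 0.68, adjusted p = 0.00398). Csn3, the micelle-stabilizing kappa-casein, was already high in every gland, from 11.34 in gland 4 to 12.62 in gland 2. Its 1.36 ± 0.24 rise (adjusted p = 0.00338) was not shared by a second probe set, at -0.82. The casein genes are related in sequence, and probe sets for them may share signal.

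The whey proteins differed from the caseins in the glands. Wap measured 10.94, 9.11, 11.16 and 11.56 in hyperplasia and 6.23, 6.36, 6.26, 6.21 and 6.14 in the glands. All 5 glands were uniformly low, those with intermediate casein included. The difference was 4.45 ± 0.39 (adjusted p = 0.000184), 21.9-fold. Lalba, the alpha-lactalbumin subunit of lactose synthase, measured 9.72, 9.80, 10.09 and 12.06 against 6.94, 7.50, 6.14, 6.27 and 7.32 (difference 3.58 ± 0.46, adjusted p = 0.000759). Glycam1, a mucin-like protein of milk and of high endothelial venules, had the largest fitted rise of the named genes. It measured 12.69, 12.54, 13.62 and 13.56 in hyperplasia, and in the glands 5.55, 5.37, 5.42, 10.26 and 5.98. Gland 4 stood alone among the glands at 10.26, and the difference was 6.59 ± 0.83 (adjusted p = 0.000724).

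**Figure D1:**
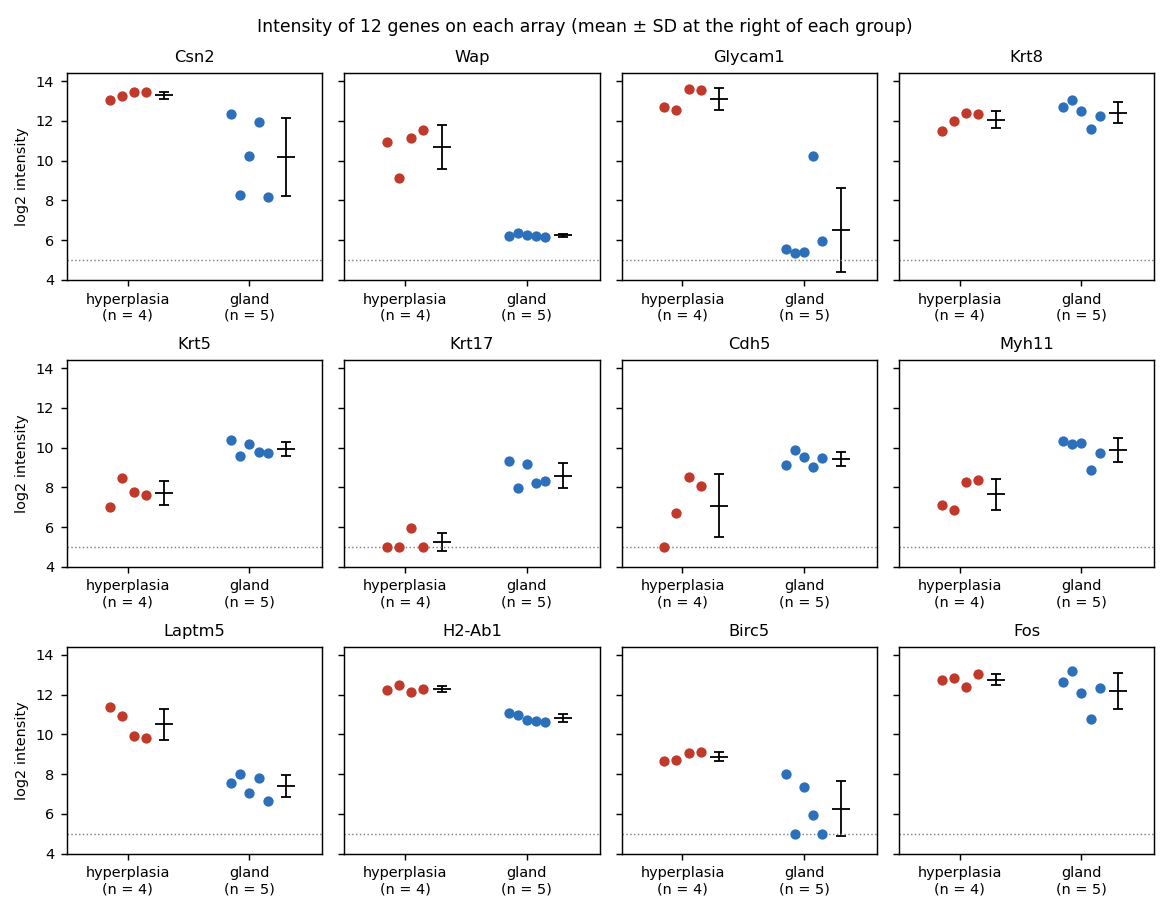
Log2 intensity (y axis, same scale in each panel) of 12 genes on the 4 hyperplasia and 5 gland arrays. Each point is an array, the bar to the right of each group is the mean ± SD, and the dotted line is the floor of 5. Csn2 ran from 13.06 to 13.45 in hyperplasia and from 8.15 to 12.36 in the glands, Krt8 overlapped, Krt17 and Krt5 were lower in all hyperplasia arrays, and Laptm5 and H2-Ab1 were higher in all of them.

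The promoters of these genes are shown because milk protein transcription is classically driven through STAT5, whose sites have the form TTCNNNGAA. That motif, which reads the same on both strands, was searched in the 250 bases before the annotated start in RefSeq (GRCm38.p6), and matches are in capitals. It occurred in Csn2 (chr5:87699426-87699675, minus strand) 93 bases before the start, in Csn1s1 (chr5:87665958-87666207, plus strand) 100 bases before it, and in Glycam1 (chr15:103565082-103565331, minus strand) 145 bases before it. It did not occur in these 250 bases of Wap (chr11:6638650-6638899, minus strand).
Csn2: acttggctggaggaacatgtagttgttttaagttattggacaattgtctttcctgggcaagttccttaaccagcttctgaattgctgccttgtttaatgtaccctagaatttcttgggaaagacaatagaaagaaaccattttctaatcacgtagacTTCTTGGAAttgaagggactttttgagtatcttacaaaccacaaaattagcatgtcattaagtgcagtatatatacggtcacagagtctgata
Csn1s1: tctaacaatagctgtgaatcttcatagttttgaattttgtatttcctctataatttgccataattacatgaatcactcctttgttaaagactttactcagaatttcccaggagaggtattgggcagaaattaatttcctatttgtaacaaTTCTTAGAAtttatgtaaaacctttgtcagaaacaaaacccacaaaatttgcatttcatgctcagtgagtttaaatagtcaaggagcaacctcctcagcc
Glycam1: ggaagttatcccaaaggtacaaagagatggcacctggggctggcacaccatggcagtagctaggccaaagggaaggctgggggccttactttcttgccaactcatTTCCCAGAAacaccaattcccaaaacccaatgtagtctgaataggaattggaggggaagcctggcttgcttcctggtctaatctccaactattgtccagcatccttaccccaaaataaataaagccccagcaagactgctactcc
Wap: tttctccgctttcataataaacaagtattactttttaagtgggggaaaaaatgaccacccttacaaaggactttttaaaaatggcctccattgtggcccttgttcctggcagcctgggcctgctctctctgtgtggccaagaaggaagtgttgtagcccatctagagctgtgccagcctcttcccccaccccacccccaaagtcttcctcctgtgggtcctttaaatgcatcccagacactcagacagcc
Of the 11 milk protein genes that rose, 9 had a promoter in the table and 3 of these held the motif, against 7.18% of 27025 promoters of the same length. A match describes letters in this window and was not tested for binding, and no binding data were used.

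Genes of milk fat secretion moved with less uniformity. Of 13 tested, 5 rose and 2 fell, with a median of 0.56. Without any 1 of hyperplasia 1, 2 or 3 or gland 1, 3, 4 or 5, 1 fell. Fabp3, a fatty acid binding protein of the lactating gland, measured 7.44, 7.10, 8.11 and 8.92 in hyperplasia. It was at the floor on every gland array but gland 4, at 5.22. Its difference was 2.85 ± 0.31 (adjusted p = 0.000461). A second Fabp3 probe set gave 0.06 and was not called. Thrsp, a regulator of medium-chain fatty acid synthesis, rose by 2.78 ± 0.49, and the droplet coat protein Plin2 by 1.64 ± 0.31. Btn1a1, the butyrophilin of the fat globule membrane, rose by 1.66 ± 0.40, with gland 2 (9.61) above hyperplasia 1 (9.55), and was not called with all 6 groups in 1 fit (adjusted p = 0.164). Of 14 fatty acid synthesis genes 4 rose, and 1 or 2 rose when hyperplasia 2 or 4 or any 1 gland was left out. Of 14 cholesterol synthesis genes none was called by limma in either direction, and 3 had an unadjusted p under 0.05. Without hyperplasia 3, 2 of these fell.

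Secretory capacity genes of the endoplasmic reticulum rose alongside. Of 20 tested, 10 rose and 1 fell (none without any 1 array other than hyperplasia 2 and 3), with a median of 0.69 and no overlap of the list's mean level (9.72 to 10.06 in hyperplasia, 8.85 to 9.53 in glands). Sdf2l1, an ER chaperone cofactor, rose by 1.50 ± 0.29 and Sec61b, a subunit of the translocon, by 1.33 ± 0.30. Xbp1, the transcription factor of the unfolded protein response and of secretory cells, rose by 1.29 ± 0.30, from 10.08 to 11.28 in glands to 11.26 to 12.46 in hyperplasia. The count of rises dropped to 1 of 20 without hyperplasia 1 and 2, to 1 with the Actb ratio in the fit, and to 5 with the spike-in signal in it.

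The general luminal markers did not separate the groups. Of 19 keratin and adhesion genes of the luminal layer none was called by limma (1 at an unadjusted p under 0.05), the median was -0.14, and the list's mean level overlapped (8.54 to 9.93 in hyperplasia, 8.63 to 9.92 in glands). Krt8 measured 11.48, 11.99, 12.40 and 12.34 in hyperplasia and 12.70, 13.05, 12.48, 11.60 and 12.26 in glands, a difference of -0.36 ± 0.29 (adjusted p = 0.397). Without hyperplasia 1 or without gland 2, 1 gene of the list rose. The partner keratin of Krt8, Krt18, differed by 0.01 ± 0.31. Both keratins were abundant in both groups. The adhesion proteins Epcam (-0.42 ± 0.31) and Cdh1 (0.15 ± 0.30) were not called either. Quantile normalization moved these genes: Krt8 was then called lower (-0.86, adjusted p = 0.0159), as was Epcam (-0.84, adjusted p = 0.0355). With the spike-in signal in the fit Cdh1 was called higher (0.85, adjusted p = 0.0419).

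Regulators and subset markers of the luminal lineage are set beside the 9.45% of all genes tested called higher and the 9.83% called lower. The alveolar shares, and the share of hormone-sensing genes that fell, are close to these. Of 13 alveolar regulators 1 rose and 1 fell, the fall being lost without hyperplasia 1 or 2 or gland 1, 2 or 5. The riser was Id2, an inhibitor of helix-loop-helix factors needed for alveolar development, at 9.80, 10.44, 9.44 and 9.78 in hyperplasia against 8.0, 8.05, 8.32, 7.74 and 8.13 in glands. The groups were far apart (1.82 ± 0.22, adjusted p = 0.000665). Elf5, the alveolar master regulator, was not called at 0.55 ± 0.42, with hyperplasia levels spread from 8.66 to 10.79 around the glands' 8.25 to 9.97. It passed with the spike-in signal in the fit (1.47, adjusted p = 0.0334). Of 9 hormone-sensing genes 1 fell and none rose, with a median of -0.69. Without hyperplasia 1, 3 or 4, 2 fell, and 4 fell without gland 4 and with all 6 groups in 1 fit. The gene that fell was Pgr, the progesterone receptor, at 7.56, 7.31, 6.68 and 6.96 against 8.32, 9.20, 8.34, 7.94 and 8.88 (-1.41 ± 0.28, adjusted p = 0.00537). Esr1, the estrogen receptor, differed by -0.33 ± 0.35 and overlapped. Among 11 luminal progenitor genes 3 rose and 2 fell, and the falls numbered 0 or 1 without any 1 array other than hyperplasia 4 and gland 4. Lbp, a lipopolysaccharide-binding protein, rose by 1.80 ± 0.32, while the progenitor receptor Kit differed by -0.40 ± 0.34 and was not called. The other risers of this list were the casein Csn3, given above, and Cd14, which is also in the macrophage list. A second Lbp probe set gave -0.01 and was not called.

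Basal and myoepithelial genes were lower in the sorted cells. Of 18 tested, 13 fell and none rose, with a median of -1.59, and the list's mean level was 6.90 to 7.93 in hyperplasia against 8.27 to 9.28 in glands. Krt17, a basal keratin, measured 5.00, 5.01, 5.93 and 5.00 in hyperplasia, and 9.31, 7.94, 9.19, 8.21 and 8.30 in glands. It lay at the floor or within 1 log2 unit of it in hyperplasia, so that the fitted difference of -3.35 ± 0.32 (adjusted p = 0.000214) may understate the fall. Krt5 measured 7.02, 8.46, 7.74 and 7.59 against 10.37, 9.58, 10.17, 9.80 and 9.70 (-2.22 ± 0.28, adjusted p = 0.000722). Krt5 remained well above the floor on all 4 hyperplasia arrays. With all 6 groups in 1 fit its adjusted p was 0.155. Krt14, its partner keratin, fell by 1.91 on the log2 scale, from 10.65 to 11.54 in glands to 8.42, 9.80, 10.02 and 8.74 in hyperplasia. Both other Krt14 probe sets also fell (-1.15 and -2.89). The smooth muscle myosin Myh11 fell by 2.22 and Snai2, a transcription factor of basal cells, by 2.03 (adjusted p = 0.069 in the 6-group fit). The count of falls was 7 in the 6-group fit, 6 with the spike-in signal in the fit and 6 without hyperplasia 1 and 2.

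Endothelial genes were lower to a like degree. Of 18 tested 14 fell and none rose, with a median of -1.47. The list's mean level was 6.22 to 7.15 in hyperplasia and 7.36 to 8.54 in glands. Cldn5, the endothelial claudin, measured 5.18, 5.72, 6.62 and 6.93 against 8.32, 8.97, 8.13, 7.28 and 8.84 (-2.20 ± 0.40, adjusted p = 0.00361). Hyperplasia 1 and 2 were lower than 3 and 4, and all 4 were below each gland. Vwf (-2.11 ± 0.48) and the transcription factor Sox17 (-1.99 ± 0.38) also fell. Cdh5, the cadherin of endothelial junctions, fell by 2.34, from 5.00 on hyperplasia 1 to 8.49 on hyperplasia 3, but a second probe set rose by 1.07. Pecam1 was not called at -0.85 ± 0.37, and was called without gland 4 (-1.12, adjusted p = 0.0328), with the Actb ratio in the fit (-1.63, 0.0129) and with all 6 groups in 1 fit (0.00152). The 14 falls became 4 with the spike-in signal in the fit, 6 without hyperplasia 1 and 2, and 9 without gland 4 and 5.

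The pericyte, adipocyte and fibroblast lists had fewer calls. Of 10 pericyte genes 3 fell, and 5 fell without hyperplasia 4. Rgs5, a pericyte signalling regulator, fell by 1.94 and Notch3 by 1.43. The other was Myh11, which is also in the basal list and is given above. Of 12 adipocyte genes 4 fell, or 2 without hyperplasia 1 or without hyperplasia 2. Fabp4, the adipocyte fatty acid binding protein, measured 10.43, 8.62, 11.05 and 10.25 in hyperplasia and 12.42, 13.09, 12.45, 11.24 and 12.73 in glands (-2.30 ± 0.46, adjusted p = 0.00572). It was thus lower but not near the floor in the sorted cells. With all 6 groups in 1 fit its adjusted p was 0.0939. Agpat2, an acyltransferase of triglyceride synthesis, fell by 1.17. The hormone Adipoq was low in both groups, at 5.00 to 5.74 and 5.00 to 6.86, and was not called. Of 21 fibroblast and matrix genes 2 fell, a share close to the 9.83% of all genes tested that were called lower, and the median was -0.37. Col1a1, the chain of fibrillar collagen, measured 9.89 to 10.90 in hyperplasia and 10.11 to 11.41 in glands, with overlap, and was not called (-0.34 ± 0.29, adjusted p = 0.435). The fibroblast count was 12 under quantile normalization, 0 without hyperplasia 1 or without hyperplasia 2, 4 without hyperplasia 3, hyperplasia 4 or gland 5, and 1 without any other gland.

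Macrophage genes were higher in the sorted cells, in contrast to the stromal lists. Of 23 tested, 22 rose and none fell, with a median of 2.18. The list's mean level was 10.73, 10.71, 10.02 and 9.72 on the hyperplasia arrays and 8.32, 9.01, 7.93, 7.97 and 8.04 on the glands. No member was at the floor on all 9 arrays. Laptm5, a lysosomal protein of haematopoietic cells, measured 11.37, 10.93, 9.92 and 9.81 against 7.57, 8.01, 7.05, 7.80 and 6.65 (3.09 ± 0.36, adjusted p = 0.00055). Hyperplasia 1 and 2 were the highest, and hyperplasia 3 and 4 were still above every gland. One of its 3 other probe sets went the opposite way (-1.41). Fcgr3, an Fc receptor, rose by 2.82 ± 0.35, the complement component C1qa by 2.56 ± 0.49, and Fcer1g, the common Fc receptor gamma chain, by 2.51 ± 0.32. Between 16 and 23 genes of the list rose under each alternative tried. The sort was for lacZ, and the labels call the cells epithelial. The part of leukocytes in the sorted fraction was not tested beyond these levels.

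The promoters of Laptm5 (chr4:130913066-130913315, plus strand) and Fcgr3 (chr1:171059404-171059653, minus strand) are shown because myeloid genes are classically driven by the ETS factor PU.1, whose core is GAGGAA. Matches on either strand are in capitals, 38 and 6 bases before the start.
Laptm5: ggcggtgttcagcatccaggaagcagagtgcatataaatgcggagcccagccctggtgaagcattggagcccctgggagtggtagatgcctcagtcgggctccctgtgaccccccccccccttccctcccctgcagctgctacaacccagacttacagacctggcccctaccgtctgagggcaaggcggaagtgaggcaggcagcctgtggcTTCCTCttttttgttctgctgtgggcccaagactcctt
Fcgr3: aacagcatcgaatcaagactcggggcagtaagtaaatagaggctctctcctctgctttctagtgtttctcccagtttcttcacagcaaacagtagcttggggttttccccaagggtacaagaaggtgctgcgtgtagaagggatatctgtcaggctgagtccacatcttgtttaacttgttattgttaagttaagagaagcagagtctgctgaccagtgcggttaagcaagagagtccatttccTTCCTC
Of the 22 macrophage genes that rose, 16 had a promoter in the table and 10 of these held the motif within 250 bases, against 23.1% of all 27025 promoters. The motif is short, and a match says nothing of binding.

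Other leukocyte genes moved by cell type. The pan-leukocyte phosphatase Ptprc measured 11.44, 11.55, 9.92 and 10.19 in hyperplasia and 8.32, 8.68, 7.82, 10.27 and 8.55 in glands. Gland 4 exceeded hyperplasia 3 and 4, and the difference was 2.05 ± 0.47 (adjusted p = 0.0114). Of 8 alternatively activated macrophage genes 6 rose, or 3 without hyperplasia 2 or without gland 3, and 1 without hyperplasia 1 and 2. The chemokine Ccl8 rose by 2.23 ± 0.46 (adjusted p = 0.075 in the 6-group fit) and the lectin Mgl2 by 2.07 ± 0.34. Of 8 MHC class II genes 6 rose, with a median of 1.28. H2-Ab1, a class II beta chain, measured 12.24, 12.49, 12.15 and 12.29 against 11.05, 10.99, 10.71, 10.70 and 10.61 (1.48 ± 0.18, adjusted p = 0.000635). Both groups were tight for this gene. With all 6 groups in 1 fit, which share 1 estimate of the spread, it was not called (adjusted p = 0.118), nor was H2-Eb1 (0.158), and 3 of the 8 class II genes rose. H2-DMa, which helps load peptide on class II, rose by 2.08 ± 0.30, and Ciita, the class II transactivator, by 1.39 ± 0.26. Class II genes are related in sequence.

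Neutrophil, mast and lymphoid lists were less uniform. Of 10 neutrophil genes 4 rose, or 2 without hyperplasia 2, gland 3 or gland 4. The alarmin S100a8 measured 9.47, 9.18, 7.08 and 8.45 in hyperplasia and was at or near the floor in all glands (5.00, 5.11, 5.00, 5.00 and 5.62). Its difference was 3.40 ± 0.40 (adjusted p = 0.00055), and its partner S100a9 rose by 2.07 ± 0.45 (adjusted p = 0.11 in the 6-group fit). The other risers were Ltf (1.94 ± 0.56) and Mpo (0.87 ± 0.26), at adjusted p of 0.0596 and 0.12 in the 6-group fit. Unlike S100a8, Ltf was well above the floor in all glands, at 8.78 to 11.29. Of 6 mast cell genes 3 fell and 1 rose, the rise being lost without any 1 array other than gland 2. The mast cell protease Mcpt4 was at the floor on all 4 hyperplasia arrays and at 5.26 to 7.27 in glands, at least 2.59-fold lower. The mast cell proteases Cma1 and Cpa3 fell by 1.31 and by 1.15. None of 10 T and NK cell genes was called by limma (3 at an unadjusted p under 0.05), with a list mean of 7.29 on hyperplasia 1 and 5.76 to 6.46 on the other 3. Without hyperplasia 3 or without gland 4, 2 of these rose. Of 13 B and plasma cell genes 1 rose and 1 fell. The number that rose was 0 without hyperplasia 1, hyperplasia 2, gland 3 or gland 5, but 3 without gland 4, 6 without hyperplasia 3 and 4 with all 6 groups in 1 fit. The fall was lost without hyperplasia 1 or gland 5. The riser was the alpha heavy chain Igha (1.76 ± 0.50, adjusted p = 0.0279), a call lost without any 1 array other than hyperplasia 3, gland 1 and gland 2, at up to 0.0899 without hyperplasia 2. The kappa light chain Igk, which is not in that list, measured 8.89, 12.22, 5.00 and 8.79 in hyperplasia and 5.00 to 5.94 in glands (3.31 ± 1.00, adjusted p = 0.0359). Hyperplasia 3 was at the floor, and the Igk call was lost without any 1 array other than that one, with adjusted p between 0.0539 without gland 4 and 0.0778 without hyperplasia 1. Without hyperplasia 2 the difference was 2.15, a second Igk probe set gave 1.23 (adjusted p = 0.255), and the mean of both gave 1.55 (0.137).

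Inflammatory and interferon genes rose in part. Of 19 cytokine and chemokine genes 7 rose, or 4 without hyperplasia 2, with a median of 0.24. Il1b measured 11.12, 11.87, 10.71 and 10.07 against 9.01, 9.20, 9.20, 9.22 and 8.56 (1.90 ± 0.31, adjusted p = 0.00217). The chemokines Ccl3 and Cxcl3 rose by 2.36 ± 0.47 and 2.17 ± 0.36. Of 17 interferon response genes 6 rose, or 2 or 3 without hyperplasia 1, hyperplasia 2, gland 1 or gland 3. Psmb8, a subunit of the immunoproteasome, rose by 1.54 ± 0.21 (adjusted p = 0.0504 in the 6-group fit) and the antiviral synthetase Oas1a by 1.96 ± 0.40. The macrophage list was higher on the same arrays, and its part in these rises was not tested.

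**Figure D2:**
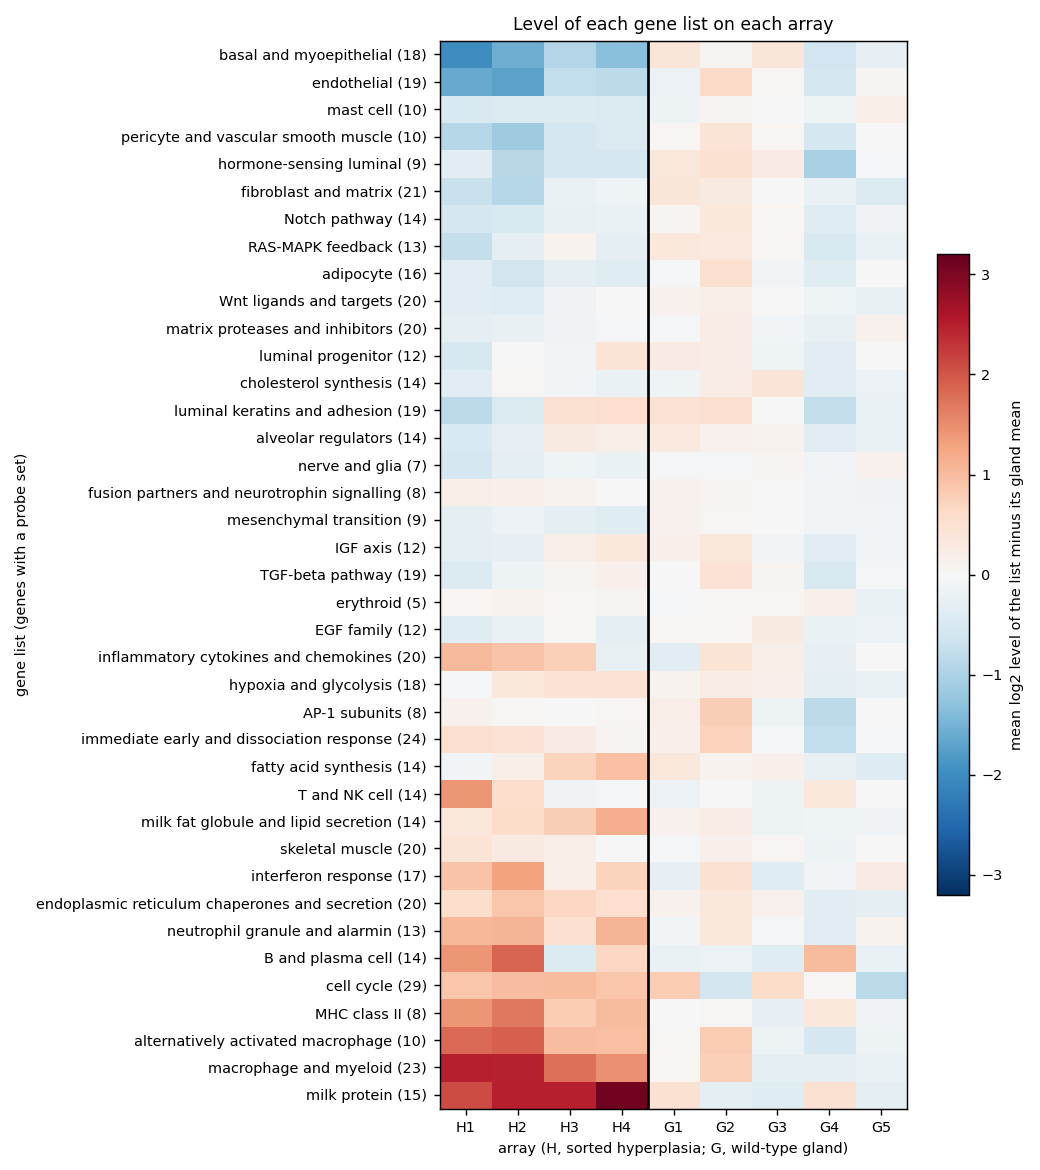
Mean log2 level of each gene list on each array minus that list's mean over the 5 glands (colour), for hyperplasia (H1 to H4) and glands (G1 to G5), with lists ordered by their median difference and the number of genes with a probe set in brackets. Milk protein and macrophage lists are high on all 4 hyperplasia arrays and basal and endothelial lists are low on them, while luminal keratins and adhesion show both signs within each group.

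Cell cycle genes were higher in hyperplasia, with most of the variation among the glands. Of 28 tested 12 rose and 2 fell, with a median of 1.14. The list's mean level was 7.82, 7.93, 7.95 and 7.82 in hyperplasia, and 7.75, 6.35, 7.51, 6.97 and 6.08 in glands. Gland 1 lay just below the hyperplasia arrays and gland 2 and 5 far below them. Birc5, a mitotic survivin, measured 8.65, 8.70, 9.05 and 9.11 against 8.0, 5.0, 7.37, 5.94 and 5.0 (2.62 ± 0.55, adjusted p = 0.0073). Mki67, the proliferation antigen, measured 9.15, 9.19, 9.01 and 8.94 against 8.69, 5.50, 7.99, 7.55 and 5.86 (1.95 ± 0.55, adjusted p = 0.0267). The Mki67 call was lost without hyperplasia 1 (adjusted p = 0.0605), hyperplasia 2 (0.0671) or gland 5 (0.0645). Cdca8 rose by 2.33, but of its 2 other probe sets 1 rose and 1 fell. Cyclin D1, Ccnd1, was not called at -0.29 ± 0.42. Of the genes that fell, Ccne1 had a second probe set that rose by 2.32, and Cenpf a second one that was not called (0.62). The 12 rises became 7 without hyperplasia 1, 6 without hyperplasia 2, 7 without gland 5, 4 without gland 4 and 5, and 1 without hyperplasia 1 and 2.

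Of the fusion partners, Etv6 measured 7.98, 8.40, 8.50 and 9.01 in hyperplasia and 9.36, 8.63, 8.67, 8.47 and 8.44 in glands, and was not called (-0.24 ± 0.25, adjusted p = 0.526). The probe set chosen for Ntrk3 did not pass the filter on low values. Of the 8 Ntrk3 probe sets 3 were at the floor on all 9 arrays, and the highest level of any was 6.48. One of the others was lower in hyperplasia, at 5.18, 5.55, 5.16 and 5.00 against 5.78 to 6.03 (-0.66, adjusted p = 0.0253 over probe sets). Another was at 6.48, 5.61, 5.36 and 5.10 in hyperplasia and at 5.00 in the glands. Which of these probe sets would read the knocked-in NTRK3 sequence is not known here, so these levels do not check the genotype. Of 6 genes tested in the list of fusion partners and neurotrophin signalling 1 rose, beside 9.45% of all genes tested. Without hyperplasia 3, 1 also fell. Of 13 RAS-MAPK feedback genes 1 fell and none rose, a share of falls close to the 9.83% of all genes tested. There were 4 falls without hyperplasia 3 and 3 without gland 4.

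Of 12 IGF axis genes 3 rose and 2 fell, beside 19.3% of all genes tested that were called either way. Igf1, the growth factor, measured 9.62, 8.92, 8.62 and 8.48 against 7.11, 8.42, 7.02, 6.53 and 6.99 (1.70 ± 0.35, adjusted p = 0.00715). The groups did not overlap, though gland 2 came close to hyperplasia 4. Other Igf1 probe sets gave 0.83, 0.68 and 0.60, with adjusted p of 0.0257, 0.105 and 0.0888 over probe sets. Its binding protein Igfbp2 rose by 1.35 ± 0.31 and Igfbp3 fell by 1.62. With all 6 groups in 1 fit no gene of the list was called, at adjusted p of 0.0685 for Igf1, 0.256 for Igfbp2 and 0.0789 for Igfbp3. The receptor Igf1r differed by -0.87 ± 0.27 (adjusted p = 0.0384), a call lost without any 1 array other than hyperplasia 4 and gland 3, at adjusted p up to 0.107 without hyperplasia 2. Without 1 of those arrays, 1 gene of the list fell. Igf2 sat at the threshold (0.72 ± 0.23, adjusted p = 0.0498), a call lost without any 1 array other than hyperplasia 1, at up to 0.114 without hyperplasia 4. Of 10 EGF family genes 2 fell, or 1 without any 1 array other than hyperplasia 3, beside 9.83% of all genes tested.

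The Notch, Wnt, TGF-beta, mesenchymal and protease lists are set beside the 9.83% of all genes tested that were called lower and the 9.45% called higher. Of 13 Notch pathway genes 5 fell, or 3 without hyperplasia 2, and 1 rose. The Notch target Nrarp measured 5.00, 5.34, 6.21 and 6.02 against 7.45, 7.48, 7.52, 6.93 and 7.86 (-1.80 ± 0.27, adjusted p = 0.00163). Of 19 Wnt genes 2 fell, or 1 without hyperplasia 2 or gland 1, 3 or 5. Of 19 TGF-beta pathway genes 2 fell, or 1 without hyperplasia 1 or 4 or any 1 gland other than gland 4. The Wnt and TGF-beta shares are close to that of all genes. Of 9 mesenchymal transition genes the 2 that fell were Snai2 and Zeb1. Of 17 matrix proteases and inhibitors 4 fell and 1 rose, or 2 rose without hyperplasia 4. The riser was the macrophage elastase Mmp12 (1.97 ± 0.30, with an adjusted p of 0.0549 in the 6-group fit), and the aggrecanase Adamts4 fell by 2.18. Of 18 hypoxia and glycolysis genes 3 rose, or 1 without hyperplasia 2. Of 5 nerve and glia genes 2 fell, with 0 or 1 without any 1 array other than gland 1 and 3. Of 6 skeletal muscle genes 2 rose, with 5 of the list's 20 genes at the floor on all arrays, and none of 3 erythroid genes was called by limma (1 at an unadjusted p under 0.05, and 1 rose without hyperplasia 1).

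Among the other genes with the largest rises were several that belong to no single program. Lao1, an amino acid oxidase secreted into mouse milk, measured 9.10, 9.22, 10.80 and 11.37 against 5.93, 5.91, 6.20, 6.86 and 6.70 (3.80 ± 0.44, adjusted p = 0.00054). Sftpd, the collectin surfactant protein D, measured 8.49, 9.55, 9.61 and 10.87 in hyperplasia, with gland 2 at 8.67 and the other glands at 5.35 to 6.17. Col9a1, a chain of collagen IX best known from cartilage, rose by 3.17 ± 0.45. For Lao1, Sftpd and Col9a1 hyperplasia 4 was the highest array, as it was for Wap and Lalba. Pla2g15, a lysosomal phospholipase, rose by 3.52 ± 0.38 and was at the floor on every gland but gland 2. Ear3, an eosinophil-associated ribonuclease, rose by 3.49 ± 0.38 with the same gland standing out at 5.86.

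Of the 12 named genes with the largest fitted falls, 6 correlated with Hoxd13 at 0.95 or more over the 9 arrays, Hoxd13 included. Hoxd13, a homeobox gene of limb and urogenital patterning, measured 5.00, 7.53, 7.79 and 5.33 in hyperplasia and 9.63, 9.37, 9.33, 9.96 and 9.37 in glands (-3.12 ± 0.51, adjusted p = 0.00217). Hyperplasia 1 and 4 were near the floor, hyperplasia 2 and 3 intermediate, and the glands uniform. The others were Trim62, a ubiquitin ligase, Kif6, a kinesin, Cryl1, a crystallin-like enzyme, Atp2b3, a calcium pump, and Hs6st2, a heparan sulfate sulfotransferase. In all, 134 genes called lower correlated with Hoxd13 at 0.95 or more over the 9 arrays, a set chosen after their values were seen and described without a test. Their mean level was 6.68, 7.71, 8.02 and 6.88 in hyperplasia and 8.68 to 8.97 in glands. Their other probe sets did not follow. Of 116 other tested probe sets of 74 of these genes, 14 were also called lower (12.1%) and 12 were called higher (10.3%), with a median difference of -0.11 against -1.36 for the chosen probe sets. For the other genes called lower, 22% of other probe sets were also called lower and 3.58% were called higher. The basal list members Krt14 and Lgals7 and the cell cycle list members Cenpf and Ccne1 are among the 134. The second Hoxd13 probe set gave -0.40 and was not called.

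The other 6 correlated with Hoxd13 below 0.95. Of these, Krt17 also had hyperplasia 1 and 4 lowest, at the floor. Id4, an inhibitor of helix-loop-helix factors expressed in basal cells, measured 5.00, 5.73, 7.27 and 7.14 against 9.63, 9.30, 9.42, 8.74 and 9.12 (-2.96 ± 0.41, adjusted p = 0.00116). Reln, a secreted glycoprotein, fell by 2.81 and the endopeptidase Mme, which marks myoepithelial and stromal cells, by 2.40. Selp, the P-selectin of platelets and activated endothelium, measured 8.47, 7.94, 10.07 and 8.22 against 10.24, 11.78, 11.68, 10.60 and 11.99. The channel gene Hcn3 was at the floor on all 4 hyperplasia arrays and at 6.84 to 9.17 in glands, at least 8.10-fold lower.

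**Figure D3:**
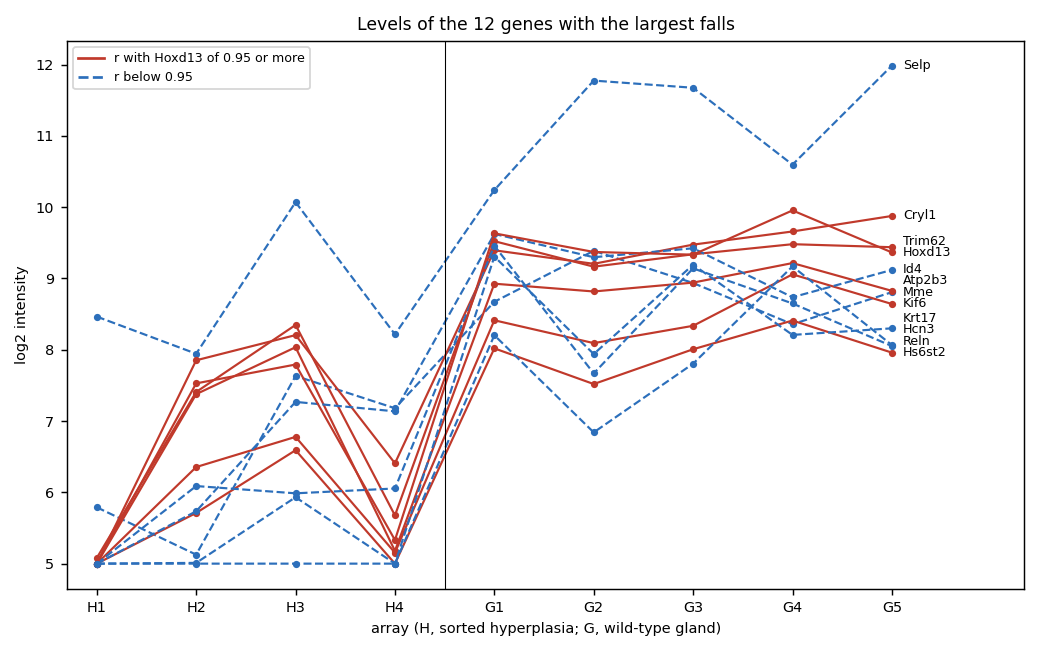
Log2 intensity (y axis) on each of the 9 arrays for the 12 named genes with the largest falls. Solid red lines join the 6 genes that correlate with Hoxd13 at 0.95 or more, Hoxd13 included, which are low on H1 and H4, intermediate on H2 and H3 and uniform over the glands, and dashed blue lines join the other 6 genes.

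Because the hyperplasia arrays were sorted and the gland arrays were not, the tumor arrays were used to set the sort difference beside it. Sorted and unsorted primary tumors differed in 3703 genes, 27.6% of those tested, with 1443 higher (10.8%) and 2260 lower (16.8%) after sorting. These tumor arrays are not part of the hyperplasia comparison, and no mouse gave both a sorted and an unsorted primary tumor. Of the 1268 genes higher in hyperplasia, 249 were called higher and 159 lower in sorted tumors, and of the 1319 lower genes 67 were called lower and 293 higher. Across genes the differences correlated at -0.05, and genes are not independent replicates. A contrast of the hyperplasia difference minus the tumor sort difference, fitted over all 6 groups with mouse as a block, called 4088 genes (30.5%), of which 2325 were higher (17.3%) and 1763 lower (13.1%). This contrast assumes that the tumor difference came from the sort and that the sort acted alike on glands and tumors, which the arrays cannot show. The immediate early list's mean level was 10.43 in unsorted glands, 10.55 in sorted tumors and 8.41 in unsorted tumors. The unsorted groups were thus unlike for that list, and there the contrast does not measure a change beyond the sort.

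**Figure D4:**
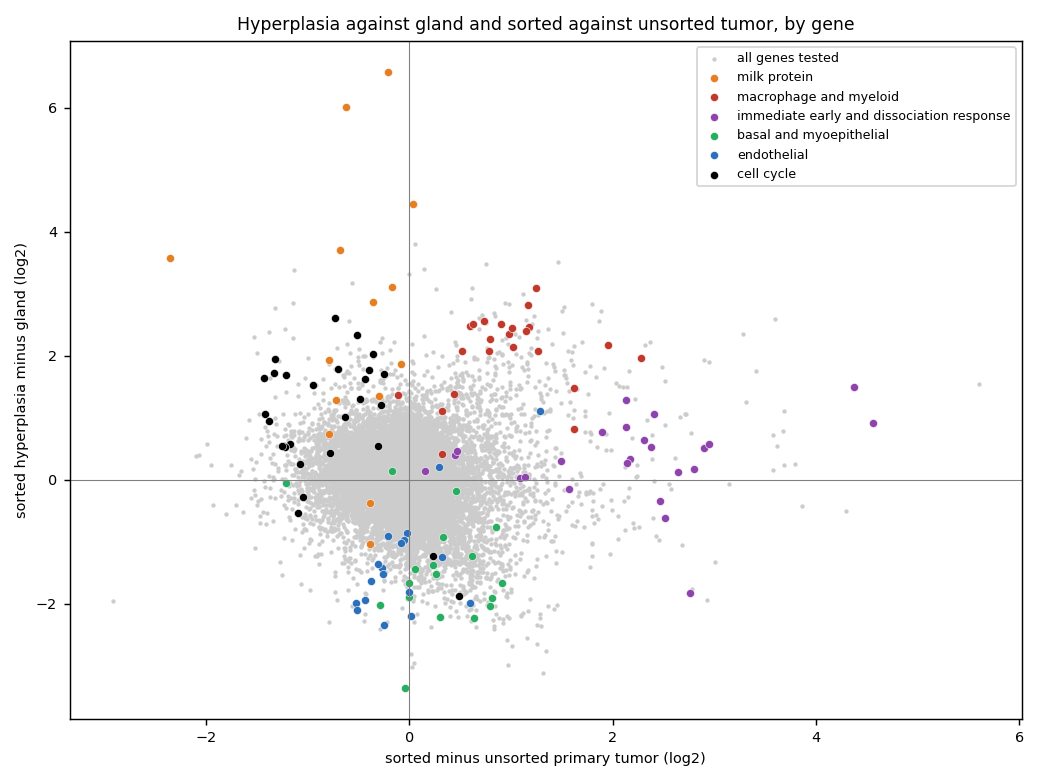
Each point is a gene, placed by its log2 difference between sorted and unsorted tumors (x axis) and between sorted hyperplasia and gland (y axis). Grey points are all genes tested and coloured points are 6 lists. Milk protein genes lie high near or left of 0 on the x axis, macrophage genes lie high and to the right, and immediate early genes lie to the right with hyperplasia differences near 0.

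For the milk protein, cell cycle and basal lists the median difference between hyperplasia and gland was 2.40, 1.14 and -1.59. Between sorted and unsorted tumors it was -0.39, -0.86 and 0.28. Of 14 milk protein genes none was called higher in sorted tumors, and 11 were called higher in hyperplasia beyond the sort difference. The milk list's mean level was 10.33 in unsorted tumors, 9.84 in sorted tumors and 7.67 in glands. Unsorted tumors were thus already high, and the sort was for cells in which the Wap promoter had been active. The contrast therefore cannot set the milk rise apart from selection by the sort. Wap, at 0.04 in the tumors, gave 4.42 beyond the sort difference (adjusted p = 0.00064), and Lalba, lower in sorted tumors by -2.36, gave 5.94. Of 28 cell cycle genes 18 were lower in sorted tumors and 25 were higher in hyperplasia beyond that. The cell cycle list's mean level was 8.46 in unsorted tumors and 7.74 in sorted tumors, against 6.93 in glands and 7.88 in hyperplasia. Unsorted tumors and unsorted glands were thus unlike for this list too, and here the contrast does not measure a change beyond the sort. Of 18 basal genes 1 was higher and 1 lower in sorted tumors, and 7 were lower beyond the sort difference. The basal list's mean level was already 7.66 in unsorted tumors and 7.96 in sorted tumors, against 8.88 in glands and 7.42 in hyperplasia. The unsorted groups were unlike here as well, so the contrast cannot set the basal fall apart from the sort. Of 18 endothelial genes 2 were higher and none lower in sorted tumors, and 14 were lower beyond it. The endothelial list's mean level was already 5.97 in unsorted tumors, near the floor of 5, against 7.93 in glands. Sorting had little room to lower these genes in tumors, so the contrast cannot set their fall apart from the sort.

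The macrophage list moved the same way in both comparisons. Of 23 genes 8 were higher in sorted tumors, with a median of 0.98, beside 10.8% of all genes tested. In hyperplasia 5 were higher beyond the sort difference, with a median of 1.30. That share is close to the 17.3% of all genes tested that were called higher in this contrast. Laptm5 was higher in sorted tumors by 1.25 (adjusted p = 0.043), and its difference beyond that was 1.84 (adjusted p = 0.098). For Mrc1, the mannose receptor, the tumor sort difference was 2.28 and the hyperplasia difference 1.96, which was not called in the 6-group fit (adjusted p = 0.0654). The MHC class II gene H2-Eb1 was likewise higher by 1.65 in sorted tumors and by 1.46 in hyperplasia. The macrophage list's mean level varied more over sorted tumors (7.07 to 10.37) than over hyperplasia (9.72 to 10.73).

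The immediate early genes showed the reverse arrangement. These genes are transcribed within minutes of stimulation, and tissue dissociation is known to induce them. Of 24 tested, 21 were higher in sorted than in unsorted tumors, with a median of 2.24, whereas 4 rose and 1 fell in hyperplasia against gland, with a median of 0.37. The 4 rises became 2 without hyperplasia 1, hyperplasia 2 or any 1 gland other than gland 2, and without gland 4, 2 fell. Fos measured 12.76, 12.82, 12.37 and 13.03 in hyperplasia and 12.63, 13.17, 12.09, 10.75 and 12.32 in unsorted glands (0.55 ± 0.39, adjusted p = 0.33), but differed by 3.62 between sorted and unsorted tumors. Jun differed by 0.47 ± 0.26 against 1.99 in tumors. Gland 4 was the lowest gland for both. The list's mean level was 9.64 to 11.17 in the unsorted glands, 10.53 to 10.94 in sorted hyperplasia, 10.18 to 10.99 in sorted tumors and 7.84 to 9.11 in unsorted tumors. The unsorted glands thus lay with the sorted groups and above every unsorted tumor. How the glands were handled before extraction was not given.

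The immediate early genes Fosl1 and Egr3 were lower in hyperplasia than in glands, as was the protease Adamts1. Fosl1, an AP-1 subunit, measured 6.97, 7.03, 7.82 and 7.01 against 8.77, 9.47, 9.19, 8.93 and 9.41 (-1.95 ± 0.24, adjusted p = 0.000653), and it was the only AP-1 subunit of 8 tested that was called. Without gland 2, 2 others rose, and without hyperplasia 3, 1 other rose. In sorted tumors it was 2.93 higher, and its difference beyond the sort was -4.87. Fosb was not called in hyperplasia (-0.51 ± 0.42), and gave -4.80 beyond the sort. Most of that -4.80 was the difference between sorted and unsorted tumors, 4.29 for Fosb. Egr3, an early growth response factor, was at 7.40 to 8.89 in hyperplasia and 8.86 to 10.73 in glands, and Adamts1 at 9.15 to 10.06 and 10.40 to 11.93. A second Egr3 probe set gave 0.25 and was not called. The heat shock gene Hspa1a rose by 1.49 ± 0.33 in hyperplasia and was 4.37 higher in sorted tumors, and it has a near-identical copy, Hspa1b.

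**Figure D5:**
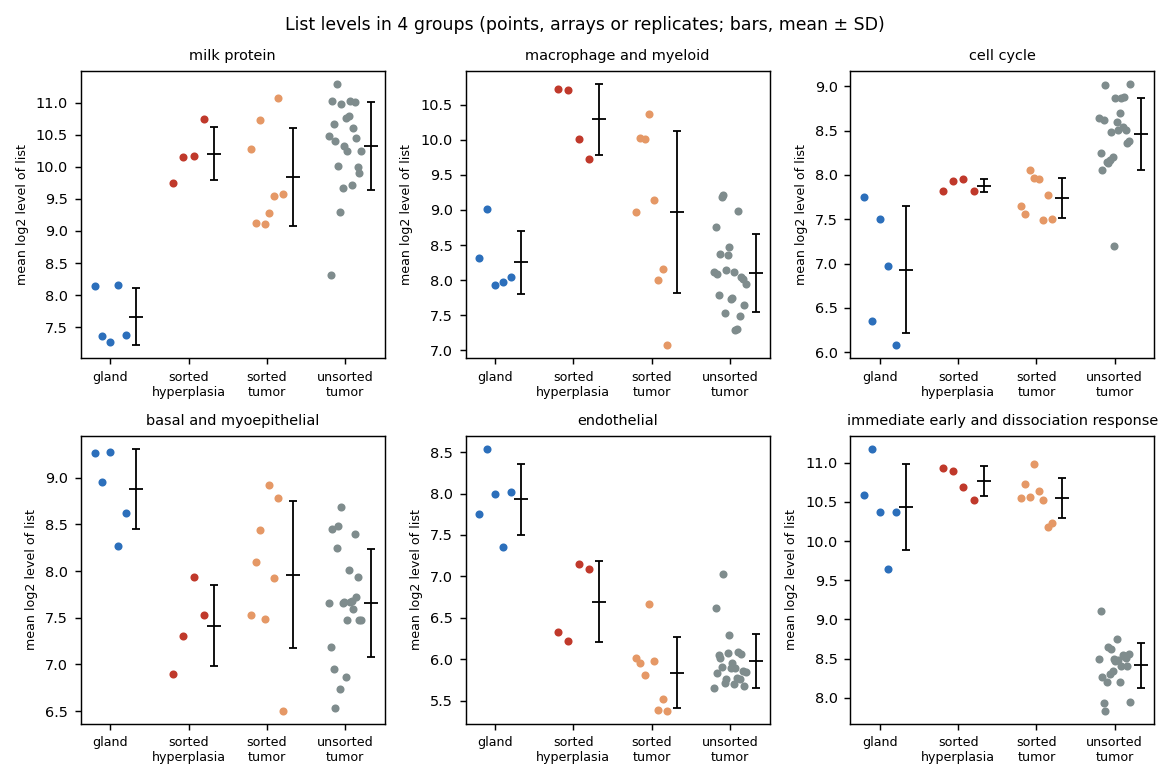
Mean log2 level of 6 gene lists (y axis, a separate scale in each panel) in glands (5), sorted hyperplasia (4), sorted primary tumors (8) and unsorted primary tumors (22). Points are arrays or averaged replicate arrays and bars are the mean ± SD. The immediate early panel shows unsorted glands at 9.64 to 11.17 beside unsorted tumors at 7.84 to 9.11, and the milk protein panel shows glands at 7.27 to 8.17, below every array of the other groups.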

How the data were processed

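Per the labels' protocols, total RNA was extracted with Trizol, cleaned on columns, and biotinylated for Affymetrix mouse whole genome arrays. The authors deposited 1 table of probe set intensities on a linear scale. The summarizing tool and its scaling are not given in the sources used. Detection calls were left aside. The table holds 45101 probe sets, of which 64 were controls and 1, with extreme values, was left out. Intensities under 32 (35.9% of values on the 9 arrays) were set to 32 before log2, so low genes have understated differences. Array medians were 50.3 to 57.8. The number of arrays limits the precision.

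Symbols of the array platform's annotation were brought up to date by matching Entrez gene IDs to RefSeq (GRCm38.p6), with 34740 probe sets matched. A single symbol was listed for 34944 probe sets, several for 932 and none for 9160. Each of 18192 genes was represented by the probe set that had the highest mean intensity, and 13414 were tested, those above the 40th percentile of their array on at least 4 of the 9 arrays.

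The test was limma 3.58.1 (R 4.3.3), lmFit and eBayes on the 9 arrays. The contrast beyond the sort difference used all 6 groups, transplanted tumors included (50 replicates, 1 tumor's 2 arrays averaged), with mouse as a block (correlation 0.369). Data of 13414 genes were simulated with equal spread in all groups and 100 genes changed by each size, taken from those above the median level. There the hyperplasia fit recovered 93% of 4-fold and 51% of 2-fold changes, which does not cover low genes. With unequal spread and no change simulated, the contrast beyond the sort called 17 genes. With unequal spread and changes, it called 39 unchanged genes. Simulated arrays were independent and were fitted with almost no mouse correlation, so these counts may not hold for the real arrays.

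The arrays compared and the gene lists were chosen with earlier results of these data known. Named genes are the 12 largest rises and falls called, the 5 largest each way beyond the sort difference, 25 genes named whatever their result, and up to 4 called members of each list. List members that lost their call when 1 array was left out are mostly counted and not named, a choice made after seeing values. Other genes named are stated as such. The alternatives were the floor, quantile normalization, the probe set rule, the filter, array weights, moderation, the 6-group fit, leaving out arrays, and the spike-in signal and the Actb ratio as covariates, with the last and the removal of gland 4 and 5 added after seeing the data.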

Additional observations from a re-analysis of the deposited data

Results flagged for a closer look

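Within a group of 4 or 5 arrays, an array was singled out where its gap to the nearest other array exceeded Dixon's 95% critical value. This was so in 23 groups of values, 7.82% of those examined, and chance gives about 1 in 20. Where all other arrays lie at the floor, any value above it is singled out, as for Pla2g15, Ear3 and Fabp3. Gland 2 held 7 of the 23. It was the highest gland for Pla2g15 (6.87, others at 5.00), Ear3 (5.86, others at 5.00), Sftpd (8.67, others at most 6.17), Btn1a1 (9.61, others at most 8.72), Ccl8 (10.49, others at most 8.94), Mgl2 (8.55, others at most 7.64) and Ccl3 (7.46, others at most 6.39). Of these, Ccl8, Mgl2 and Ccl3 are macrophage or chemokine genes, and gland 2 was also the highest gland for the macrophage list.

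Gland 4 stood apart for Glycam1 (10.26, others at most 5.98), Fabp3 (5.22, others at 5.00) and the B and plasma cell list (7.72, others at most 6.52). Gland 1 stood apart for Etv6 (9.36, others at most 8.67) and Thrsp (6.05, others at most 5.12). Gland 3 was the lowest gland for Zeb1 (7.77, others at least 8.51) and H2-Eb1 (10.86, others at least 11.20). Gland 5 was the highest for S100a8 (5.62, others at most 5.11).

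Hyperplasia 3 stood apart 4 times. It was the highest for Krt17 (5.93, others at most 5.01) and Fosl1 (7.82, others at most 7.03), and the lowest for S100a9 (5.92, others at least 8.29) and the neutrophil list (7.0, others at least 7.54). Hyperplasia 4 was the highest for Lalba (12.06, others at most 10.09) and Fosb (10.77, others at most 10.34) and the lowest for Cxcl3 (6.49, others at least 7.98). Hyperplasia 1 was the lowest for Reln (5.00, others at least 5.99).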

How the results depend on the processing

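Between hyperplasia and glands 2587 genes were called, 49.0% of them higher, and the 9 settings other than left-out arrays and covariates gave 2061 to 3151. Leaving out 1 array gave 1625 (hyperplasia 2) to 2663. The count moved most with the spike-in signal in the fit (1179, 61.2% higher), without hyperplasia 1 and 2 (856), with the Actb ratio in the fit (965, 37.2% higher) and without gland 4 and 5 (1447, 37.2% higher). Fewer arrays or a covariate also leave fewer degrees of freedom, and the cause was not tested. The 4088 calls beyond the tumor sort difference ranged from 2876 to 4249, and from 3338 to 4132 with 1 array left out. Of the 137 called genes that the naming rule gives, 38 kept their call in all 22 settings, 98 kept it whenever 1 array was left out, and 36 lost it with all 6 groups in 1 fit, counting a gene that was filtered out as lost. The calls reversed in sign numbered 1, Ccne1 with the mean of its probe sets (0.22). Differences of genes that were not called changed sign as follows. Quantile normalization gave Cdh1 -0.19 and Krt18 -0.52, the mean of probe sets gave Col1a1 0.11, and array weights gave Krt18 -0.069. The spike-in signal gave Etv6 0.18, Ccnd1 0.53, Col1a1 0.14, Krt8 0.11, Kit 0.39 and Epcam 0.20. Without hyperplasia 1 and 2 Etv6 was 0.046, Ccnd1 0.29, Col1a1 0.10, Kit 0.24 and Epcam 0.094. The Actb ratio gave Fos -0.28, Cdh1 -0.092 and Krt18 -0.57, and without gland 4 and 5 Cdh1 was -0.040 and Krt18 -0.30. With 1 array left out Cdh1 ranged from -0.050 to 0.41, Krt18 from -0.25 to 0.19 and Ccnd1 from -0.57 to 0.073. No paired analysis was possible because each of the 9 arrays came from a different mouse and no label ties a hyperplasia array to a gland array. Values at the floor of 32 have no order, which limits genes that are low in 1 group.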
